A study of Homo sapiens with 6 samples.

Results

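Transcript levels of 9 interferon-induced genes were followed in RT-112, an established human bladder cancer cell line, after silencing of PPP2R2A, which encodes a B55-type regulatory subunit of protein phosphatase 2A. The genes were IFI44L, IFI44, IFI6, IFI27, IFI35, IFITM1, IFITM2, IFITM3 and XAF1, a fixed list of names proposed with earlier results of these data known. The list is not a whole family: XAF1 has neither family name, and 4 other tested genes with IFI or IFITM names (IFI16, IFI27L1, IFI27L2 and IFITM10) are outside it. All 12 probe sets whose single gene symbol in the platform's table was one of these names were taken, out of 41091 probe sets with 1 symbol for 19775 genes. The 3 groups were cells transfected with a scramble siRNA, with siPPP2R2A_1 (siRNA 1 here) or with siPPP2R2A_2 (siRNA 2), with 2 arrays each, named A and B. Per the labels' protocols, every group, scramble included, received 50 nM siRNA with Lipofectamine RNAiMAX in 2 rounds 24 h apart, and RNA was taken 24 h after the second round, so all groups share the transfection itself. The 2 arrays of a group are described as technical duplicates in the design text. The p-values therefore measure only the spread between these arrays, whose number limits the precision. In bulk RNA, fewer cells that express a gene and less RNA per cell cannot be told apart. The measure is a linear signal intensity per probe set, which has no fixed relation to copies of RNA and is not compared between probe sets.

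Interferons bind cell surface receptors that act through JAK kinases on STAT proteins and IRF9, and the complex so formed switches on a large set of genes through a DNA element called the interferon-stimulated response element (ISRE). Sensors of foreign RNA in the cytoplasm can switch on many of the same genes through interferon regulatory factors. The IFITM proteins sit in membranes and hinder virus entry, IFI6 and IFI27 are small hydrophobic proteins of the endoplasmic reticulum and mitochondria, IFI44 and IFI44L are related proteins of neighbouring genes, IFI35 is a cytoplasmic protein, and XAF1 binds the caspase inhibitor XIAP.

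PPP2R2A itself stood at 1381 and 1589 on the scramble arrays, 336 and 397 on those of siRNA 1 and 509.96 and 533 on those of siRNA 2, and limma called it lower with both (log2 change -2.02 and -1.51). All 8 epithelial and urothelial markers lay above the array's median signal on all 6 arrays. Limma called 0 of the 8 in each comparison, where 0.393% of all genes were called with siRNA 1, 0.597% with siRNA 2 and 0.212% between the siRNAs. With siRNA 2, however, 4 were lower at an unadjusted p under 0.05, where 8.76% of all genes tested were (KRT8 -0.62, CDH1 -0.49, GATA3 -0.32 and KRT19 -0.27 on the log2 scale). The summed signal of the 8 markers was 131688 to 136183 with scramble, 131152 to 136741 with siRNA 1 and 111758 to 119449 with siRNA 2. Of 4 leukocyte markers 3 lay below the array median on every array, among them PTPRC, and CD3E lay above it on 2 arrays. Their sum was 89.3 to 113 with scramble, 147 to 161 with siRNA 1 and 39.1 to 131 with siRNA 2. Of 4 fibroblast markers COL1A1 lay above the median on all arrays, DCN on 3, and COL3A1 and PDGFRB on none (sums 1191 to 1223, 1044 to 1179 and 1212 to 1236). Of 3 endothelial markers PECAM1 and CDH5 lay above it on all arrays and VWF on 1 (sums 387 to 446, 318 to 368 and 269 to 338). Such sums weigh a list's brightest probe sets most, as with COL1A1 (867 to 1175) among the fibroblast markers, and do not describe every marker. No detection calls came with these values, and the median is not one. ACTB has control probe sets at both ends of its transcript, and their ratio, 3' end over 5' end, rises as RNA breaks down or labelling falls short. It was 5.43 and 5.94 on the scramble arrays, 6.52 and 7.82 with siRNA 1, and 7.47 and 12.4 with siRNA 2. The same ratio for GAPDH was 1.00 on both scramble arrays, 1.00 and 1.02 with siRNA 1, and 1.00 and 0.943 with siRNA 2. The ACTB ratio moved with the groups and the GAPDH ratio varied little, and their part in the results below was not tested.

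IFI44L had the largest changes of the 9 genes with both siRNAs. Its 1 probe set, 204439_at, read 80.4 and 92.9 on the scramble arrays, 572 and 493 with siRNA 1, and 578 and 539 with siRNA 2. All 4 knockdown arrays thus lay far above both scramble arrays, while the knockdown groups overlapped each other. The group means were 86.6 ± 8.82, 533 ± 55.5 and 558 ± 27.4 (SD between the 2 technical duplicate arrays of a group, not between cultures), a 6.15-fold and 6.45-fold rise. On the scale log2(signal + 1), limma gave changes of 2.61 with a standard error of 0.12 for siRNA 1 (adjusted p = 0.0368) and 2.68 for siRNA 2 (adjusted p = 0.0385). Among the 12735 genes tested IFI44L had the smallest p in both comparisons. A gene is called here at an adjusted p under 0.05, over all genes tested, and a change of at least 1.5-fold. Without any 1 of the 6 arrays the change lay between 2.50 and 2.71 with siRNA 1 and between 2.57 and 2.78 with siRNA 2, but it was no longer called (adjusted p from 0.0779 to 0.183 and from 0.119 to 0.196). In each of those fits limma called 0 of all 12735 genes, so the loss is not particular to IFI44L.

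The 250 bases before the annotated start site of IFI44L are shown because this gene changed most and because they hold a long direct repeat (chr1:78620198-78620447, plus strand, GRCh38.p14, from RefSeq, written 5′ to 3′). Capitals mark the core of the ISRE, which was taken as GAAA, any 2 bases and GAAA again, searched on both strands.

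IFI44L: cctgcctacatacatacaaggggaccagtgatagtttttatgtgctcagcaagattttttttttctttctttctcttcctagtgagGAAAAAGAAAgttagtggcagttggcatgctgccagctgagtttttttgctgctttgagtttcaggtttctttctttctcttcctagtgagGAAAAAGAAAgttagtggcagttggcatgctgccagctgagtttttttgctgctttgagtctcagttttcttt

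A stretch of 85 bases occurs 2 times in the window of IFI44L, each copy with 1 match to the core. A repeat at least this long is found in 0.231% of 35116 start site windows of the same length. The matches begin 164 and 73 bases before the start site. A match is only a run of letters, and no binding was measured here.

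IFI6 was the other member called. Its signals on 204415_at were 627 and 735 on the scramble arrays, 1079 and 1072 on those of siRNA 1 and 1526 and 1385 on those of siRNA 2. The 3 groups did not overlap, scramble lying lowest and siRNA 2 highest. Against scramble the change was 1.10 with siRNA 2 (SE 0.11, limma adjusted p = 0.0490), which was called, and 0.66 with siRNA 1 (adjusted p = 0.107), which was not. The siRNAs differed by -0.43 for this gene, siRNA 1 minus siRNA 2, with a 95% interval from -0.73 to -0.14 (adjusted p = 0.168), so the test does not show that IFI6 responded to 1 siRNA alone. The siRNA 2 call was lost without any 1 of the 6 arrays (log2 change 0.98 to 1.21, adjusted p from 0.125 to 0.196), as was that of every other gene. It was also lost after quantile normalization (adjusted p = 0.0527, 72 of 12735 genes called) and after centring the arrays on their medians (0.0713, 1 of 12735 called).

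The window before IFI6 is shown as the other one with a repeated core (chr1:27672193-27672442, minus strand, GRCh38.p14, from RefSeq, read along the gene).

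IFI6: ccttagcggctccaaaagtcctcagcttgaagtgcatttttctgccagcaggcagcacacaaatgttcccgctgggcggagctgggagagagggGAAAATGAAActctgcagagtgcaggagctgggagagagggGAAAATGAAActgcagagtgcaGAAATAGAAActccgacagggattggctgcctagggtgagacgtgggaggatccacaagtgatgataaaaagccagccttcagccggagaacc

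It holds 3 matches to the core, at 156, 115 and 93 bases before the start site. A stretch of 29 bases occurs 2 times, each copy with 1 core. Repeats of that length or more are found in 1.16% of the windows.

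By its brightest probe set XAF1 had the next largest changes after IFI44L, and neither was called. Its brightest probe set, 228617_at, read 102 and 109 on the scramble arrays, 365 and 248 on those of siRNA 1 and 302 and 289 on those of siRNA 2. All knockdown arrays lay above both scramble arrays, and the siRNA 2 arrays lay between those of siRNA 1. The log2 changes were 1.51 and 1.48 (SE 0.20, limma adjusted p = 0.0800 and 0.0577). A second probe set, 206133_at, read 41.5 and 86.0 on the scramble arrays, 210.1 and 186 on those of siRNA 1 and 122 and 140.4 on those of siRNA 2. One of its scramble arrays was below that array's median signal. Its log2 changes were 1.71 and 1.12, and neither was called in the fit over single probe sets. Probe set 242234_at read between 41.5 and 74.1 and was below the median on all 6 arrays, so it was not tested. With probe sets averaged the log2 changes of XAF1 were 1.24 and 0.98, and the latter was below those of IFITM1 (1.15), IFI6 (1.10) and IFI27 (1.06).

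The proteins that meet XAF1 were looked at as a list of apoptosis genes. Of its 8 genes, 5 had a probe set with that single symbol. Limma called 0 of the 5 in each of the 3 comparisons, where 0.393%, 0.597% and 0.212% of all genes were called. At the unadjusted level of 0.05 there were 0 with siRNA 1, where 9.55% of all genes were higher and 6.65% lower. There was 1 higher with siRNA 2 (12.0% of all genes) and 2 lower in the direct comparison (9.53%), and an intensity trend also called 0. The 1 with siRNA 2 was XIAP, the caspase inhibitor bound by XAF1, named after its values were seen. It read 3158 and 3264 on the scramble arrays, 3617 and 3322 on those of siRNA 1 and 4044 and 4161 on those of siRNA 2. Its log2 changes were 0.11 and 0.35 (limma adjusted p = 0.586 and 0.123).

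The 3 IFITM genes were higher than scramble by similar amounts with both siRNAs, but none was called. IFITM1, which acts mainly at the cell surface, read 265 and 225 on the scramble arrays, 419.9 and 583 on those of siRNA 1 and 533 and 556 on those of siRNA 2 on 214022_s_at. IFITM2, which sits in endosomes, read 565 and 706 on the scramble arrays, 947 and 984 on those of siRNA 1 and 970.2 and 856 on those of siRNA 2 on 201315_x_at. IFITM3, also of endosomes, read 1814 and 2101 on the scramble arrays, 3316 and 2547 on those of siRNA 1 and 3014 and 2955 on those of siRNA 2 on 212203_x_at. For each of the 3 genes all 4 knockdown arrays lay above both scramble arrays, and the knockdown groups overlapped. The log2 changes with siRNA 1 and siRNA 2 were 1.02 and 1.15 for IFITM1 (limma adjusted p = 0.121 and 0.0754), 0.61 and 0.53 for IFITM2 (0.169 and 0.144) and 0.57 and 0.61 for IFITM3 (0.216 and 0.139). The suffixes of these 3 probe sets mark them as ones that related transcripts may bind too, so they may not be 3 separate readings.

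IFI27 stood near IFITM1 in size. On 202411_at it read 457 and 603 on the scramble arrays, 1125 and 919.6 on those of siRNA 1 and 899 and 1341 on those of siRNA 2. The scramble arrays were lowest and the duplicates of siRNA 2 lay far apart. The log2 changes were 0.95 and 1.06, with a standard error of 0.26, the largest of the 9 genes (limma adjusted p = 0.208 and 0.124).

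By its brightest probe set, IFI44 did not follow its neighbour IFI44L with siRNA 2. That probe set, 214453_s_at, read 2777 and 3028 on the scramble arrays, 4848 and 3948 on those of siRNA 1 and 2962 and 2683 on those of siRNA 2. Both siRNA 1 arrays lay above the other 4, and siRNA 2 overlapped scramble. The log2 changes were 0.59 (limma adjusted p = 0.166) and -0.04 (0.897), and the siRNAs differed by 0.63, siRNA 1 minus siRNA 2, with a 95% interval from 0.28 to 0.99 (adjusted p = 0.125). The other probe set, 214059_at, read 349 and 279 on the scramble arrays, 650.1 and 666 on those of siRNA 1 and 494 and 396 on those of siRNA 2. On it siRNA 2 did not overlap scramble (log2 change 0.50, against 1.07 with siRNA 1), and the difference between the siRNAs was 0.57. The probe sets thus give a like difference between the siRNAs, but not the same distance of siRNA 2 from scramble.

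IFI35 was the member with the smallest change with siRNA 1. On 209417_s_at it read 351 and 438 on the scramble arrays, 583 and 453 on those of siRNA 1 and 329 and 421 on those of siRNA 2. The siRNA 1 arrays were highest and the other groups overlapped. The log2 changes were 0.39 and -0.08 (limma adjusted p = 0.442 and 0.873), and the siRNAs differed by 0.47 with an interval from -0.08 to 1.01.

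**Figure D1:**
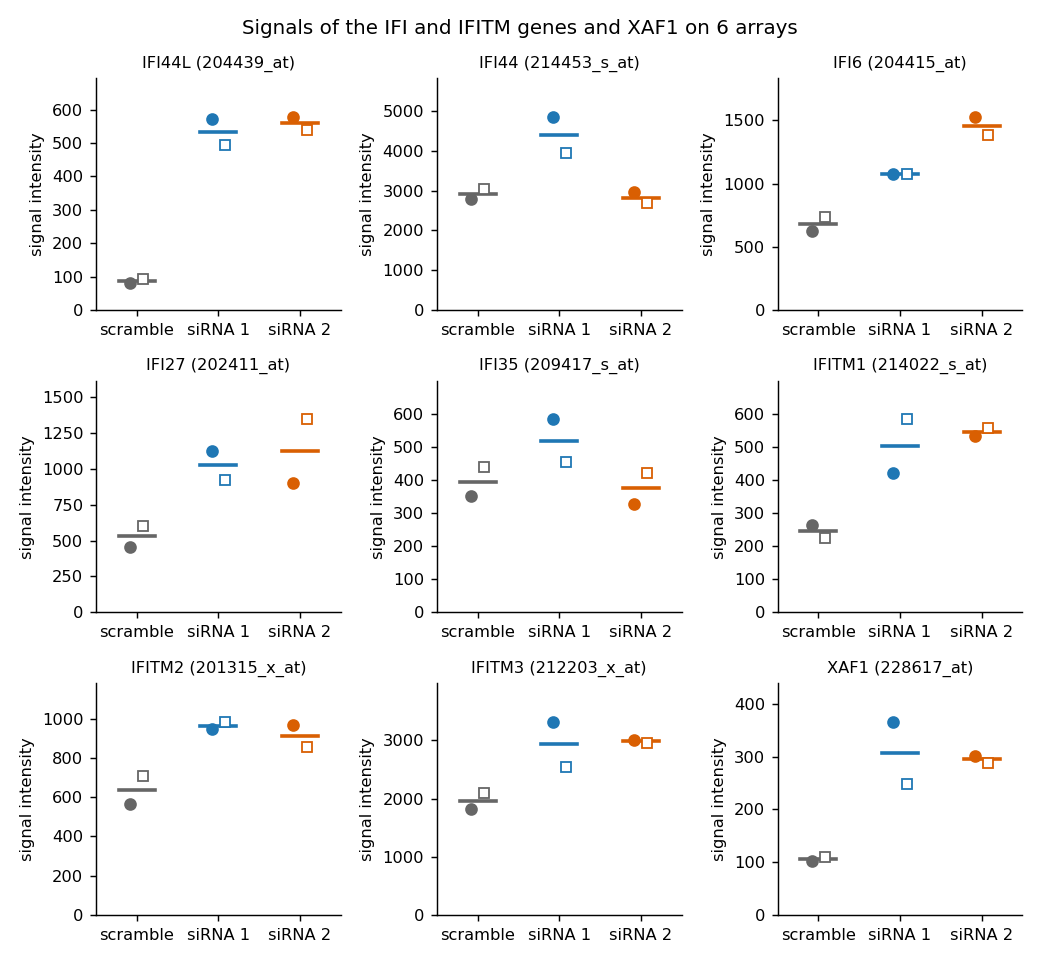
Linear signal intensity (vertical axes, each from 0) of the brightest probe set of each of the 9 genes in the 3 groups. Filled circles are array A, open squares array B and bars the mean of both. IFI44L goes from 80.4 and 92.9 with scramble to between 493 and 578 on the knockdown arrays, while IFI44 and IFI35 are highest with siRNA 1 and overlap scramble with siRNA 2.

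Set against scramble, all 9 genes had both siRNA 1 arrays above both scramble arrays, where 26.7% of all genes tested did so and 22.7% lay below. With siRNA 2 this held for 7 of 9, against 28.4% of all genes, the exceptions by the brightest probe set being IFI44 and IFI35. On the other probe set of IFI44, 214059_at, all 4 knockdown arrays lay above both scramble arrays. On all 4 knockdown arrays together it held for 7 of 9, against 14.7%. Both siRNAs were compared with the same 2 scramble arrays, so the counts are not independent of each other. The 9 names were also proposed with earlier results of these data known. The counts here and in the paragraphs below therefore describe the 9 genes, and their distance from the shares of all genes is not a test. All 9 brightest probe sets lay above the array median on all 6 arrays, scramble included. The median log2 change of the 9 genes was 0.66 with siRNA 1 and 1.06 with siRNA 2, where all genes tested had medians of 0.01 and 0.02.

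Limma called 1 of 9 with siRNA 1, where 0.212% of all genes tested were called higher and 0.181% lower, and 2 of 9 with siRNA 2, against 0.440% higher and 0.157% lower (0.597% in all). At an unadjusted p under 0.05, 8 of 9 were higher with siRNA 1, against 9.55% of all genes, and 7 of 9 with siRNA 2, against 12.0%. At that level 0 of 9 were lower, where 6.65% and 8.76% of all genes were. When the prior variance followed the signal level (an intensity trend), limma called 7 higher with siRNA 1 (1.37% of all genes, and 0.974% lower) and 6 with siRNA 2 (2.29%, and 1.41% lower). These were all but IFI35 and IFITM3 with siRNA 1 and all but IFI44, IFI35 and IFITM2 with siRNA 2. The calls therefore depended on how the variance was modelled. Without any 1 of the 6 arrays limma called none of the 9 genes and no other gene in either comparison. It also called 0 of 9 without the filter on low signals, with probe sets averaged per gene, with the array letter as a block and with only the groups compared. In each of these settings it called 0 of all genes tested too (12735, or 19775 without the filter), so these counts say nothing particular about the 9.

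Tested over every probe set with 1 symbol above the filter (23969), 11 probe sets of the 9 genes entered. Limma called 0 of the 11 with siRNA 1, against 0% of all probe sets higher, and 0 with siRNA 2, against 0.00417%. At an unadjusted p under 0.05, 10 were higher with siRNA 1 (7.41% of all, and 6.30% lower) and 9 with siRNA 2 (9.17%, and 8.87% lower). Between the siRNAs 2 were higher (8.44%) and 1 lower (7.76%) with siRNA 1, and 6 lay above 0 (50.8%). With an intensity trend 9 and 6 were called, but the share of all probe sets called in that fit was not computed. These 2 counts are therefore not read as a result about the 9 genes. All 11 lay above 0 with siRNA 1, against 49.7% of all probe sets, and 9 with siRNA 2, against 48.6%.

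The direct comparison of the siRNAs asks whether the genes respond alike to both sequences, and the scramble signals do not enter its differences. Limma called 0 of 9, against 0.0864% of all genes higher and 0.126% lower with siRNA 1. At an unadjusted p under 0.05 IFI44 was higher with siRNA 1 (9.16% of all genes were) and IFI6 lower (9.53%), and with an intensity trend IFI44 was called higher (1.63%, and 1.22% lower). Of the 9 genes 4 lay above 0, against 48.8%. Both siRNA 1 arrays lay above both siRNA 2 arrays for IFI44 and IFI35, against 24.2% of all genes, and below them for IFI6, against 26.5%. For the other 6 genes the groups overlapped and the differences lay between -0.14 and 0.08. Their 95% intervals still allow differences of either sign, from -0.40 to 0.26 for IFI44L, from -0.49 to 0.55 for XAF1, from -0.63 to 0.35 for IFITM1, from -0.29 to 0.45 for IFITM2, from -0.46 to 0.38 for IFITM3 and from -0.78 to 0.56 for IFI27.

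**Figure D2:**
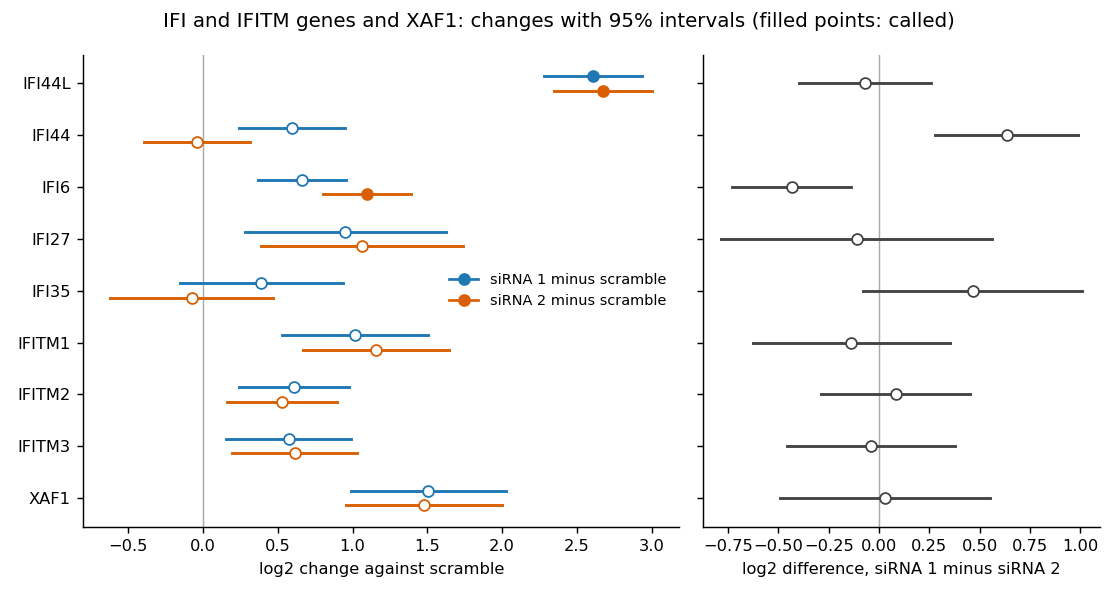
Log2 changes against scramble (left, siRNA 1 in blue, siRNA 2 in orange) and log2 differences of siRNA 1 minus siRNA 2 (right) for the 9 genes, with 95% intervals of the limma fit. Filled points were called over all genes tested: IFI44L with both siRNAs and IFI6 with siRNA 2. The intervals of IFI44 (0.28 to 0.99) and IFI6 (-0.73 to -0.14) lie on one side of 0 in the right panel before adjustment over all genes.

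Other genes of the interferon response were taken from lists of genes grouped by role. The lists were drawn up with earlier results of these data known, so their counts describe these arrays and are not an independent test. Of 39 other interferon-stimulated genes 38 were tested. With siRNA 1, 35 of 38 lay above 0, against 52.2% of all genes, with a median log2 change of 0.35. With siRNA 2, 22 of 38 did, near the 52.4% of all genes, with a median of 0.07. In the direct comparison 32 of 38 were higher with siRNA 1, against 48.8%, and the median difference was 0.27, where the 9 genes described above had -0.04. Limma called 0 of 38 in each comparison, where 0.393%, 0.597% and 0.212% of all genes were called, so 0 is near the share of all genes. At an unadjusted p under 0.05, 20 were higher and 0 lower with siRNA 1 (9.55% and 6.65% of all genes), 8 higher and 6 lower with siRNA 2 (12.0% and 8.76%), and 18 higher and 2 lower in the direct comparison (9.16% and 9.53%). With an intensity trend the calls were 4 higher with siRNA 1 (1.37% of all genes), 1 higher and 2 lower with siRNA 2 (2.29% and 1.41%), and 7 higher in the direct comparison (1.63%).

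A few genes of that list show how it differed between the siRNAs, and they were picked after their values were seen. The chemokine CXCL10 read 267 and 331 on the scramble arrays, 714 and 889.8 on those of siRNA 1 and 243 and 244 on those of siRNA 2 (log2 difference of the siRNAs 1.71, limma adjusted p = 0.0575). OASL, an antiviral protein related to the 2'-5' oligoadenylate synthetases, read 4991 and 4565 on the scramble arrays, 6708 and 5974 on those of siRNA 1 and 3244 and 2750.4 on those of siRNA 2 (1.08, adjusted p = 0.0655). Both genes were highest with siRNA 1, and their siRNA 2 arrays lay below both scramble arrays. CMPK2, a mitochondrial nucleotide kinase, read 594 and 603 on the scramble arrays, 1042 and 901 on those of siRNA 1 and 974 and 1012 on those of siRNA 2 (-0.03). It lay above scramble by about the same amount with both, as XAF1 and IFITM1 did.

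The genes of the pathway itself had smaller median changes than the 9 genes. Of 16 genes for interferon receptors and signalling, 14 had a probe set with that single symbol and 13 were tested. With siRNA 1, 10 of 13 lay above 0 (median 0.12, 52.2% of all genes), with siRNA 2, 7 of 13 (0.05, 52.4% of all genes), and in the direct comparison 9 of 13 (0.27, 48.8%). Limma called 0 in each, against 0.393%, 0.597% and 0.212% of all genes. At an unadjusted p under 0.05, 4 were higher with siRNA 1 (9.55% of all genes) and 2 higher and 2 lower with siRNA 2 (12.0% and 8.76%). Between the siRNAs 5 were higher and 1 lower (9.16% and 9.53%). With an intensity trend 1 was called higher with each siRNA (1.37% and 2.29% of all genes) and 0 between them. IRF9, the DNA-binding part of the complex that binds the ISRE, read 810.5 and 886 on the scramble arrays, 1559.8 and 1256 on those of siRNA 1 and 1568 and 1887 on those of siRNA 2. Its log2 changes were 0.72 and 1.02 (limma adjusted p = 0.156 and 0.0695). It had the largest change of the tested genes of this list with both siRNAs.

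Transcripts of the interferons themselves were at the level of dim probe sets. Of 8 interferon genes listed, 7 had a probe set with that symbol. IFNA1, IFNB1, IFNE, IFNK and IFNL2 lay below the array's median signal on all 6 arrays, IFNG above it on 1 and IFNL1 on 2. IFNB1, the interferon most cells make on sensing foreign RNA, read between 3.45 and 7.08. IFNL1 was the 1 interferon gene tested (log2 changes 0.24 and -0.15, limma adjusted p = 0.779 and 0.846). Of 6 negative regulators limma called 0 in each comparison, where 0.393%, 0.597% and 0.212% of all genes were called. At an unadjusted p under 0.05, 1 was higher with siRNA 1 (9.55% of all genes) and 1 higher and 1 lower with siRNA 2 (12.0% and 8.76%). Between the siRNAs 1 was higher (9.16%), and an intensity trend called 0. USP18, an enzyme that removes ISG15 and dampens receptor signalling, read 232 and 325 on the scramble arrays, 437 and 410.5 on those of siRNA 1 and 439 and 360.1 on those of siRNA 2. Other genes with IFI or IFITM names were also listed, 7 in all, and 4 were tested. Limma called 0 of 4 in each comparison (0.393%, 0.597% and 0.212% of all genes), and its intensity trend also called 0. At an unadjusted p under 0.05, 1 was higher with each siRNA (9.55% and 12.0% of all genes). IFI16, a nuclear DNA sensor, had the largest change of the 4 with siRNA 1 (log2 changes 0.33 and 0.20).

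**Figure D3:**
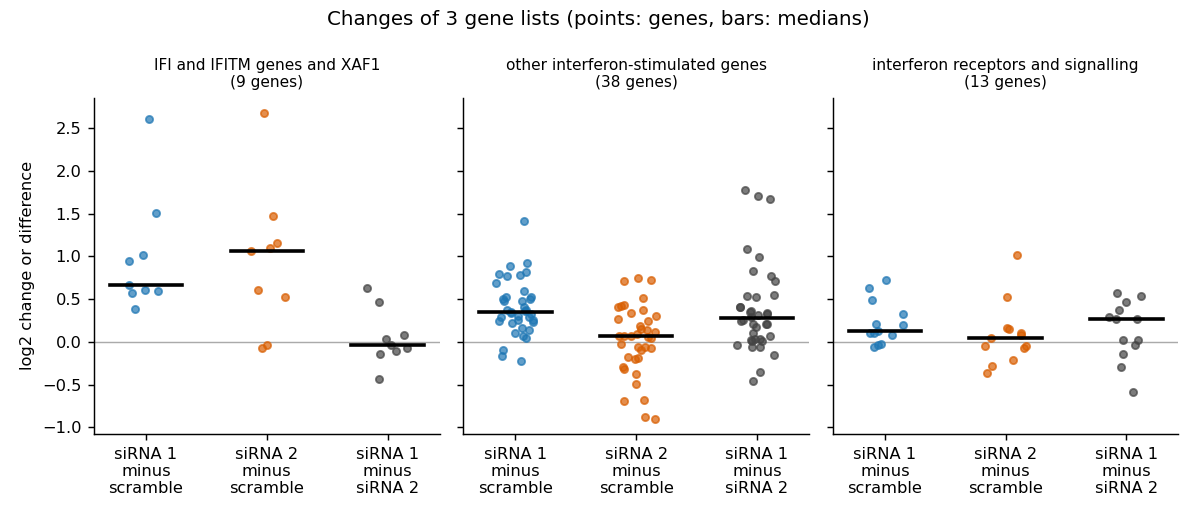
Log2 changes against scramble and log2 differences between the siRNAs (vertical axis) for the 9 IFI, IFITM and XAF1 genes, 38 other interferon-stimulated genes and 13 genes of interferon receptors and signalling. Each point is a gene and each bar a list's median. The medians of the first list are 0.66, 1.06 and -0.04, and those of the second 0.35, 0.07 and 0.27.

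The start site windows of the members were compared for the ISRE core. RefSeq windows were found for 8 of the 9 genes, all but IFITM2, each with 250 bases before and 50 after the start. The ISRE core, on either strand, was in a window of 6 of 8 genes, IFI35 and XAF1 being the others. It was in 4.38% of 27305 genes with a window (3.57% of windows) and in 24 of 32 of the other interferon-stimulated genes with one. The letters TTCNNNGAA, the core of the element bound by STAT dimers (GAS), read the same on both strands and were in the windows of IFI27, IFI35 and IFITM1, 3 of 8 genes against 9.38% of all genes and 9 of 32 of the other interferon-stimulated genes. In IFI27 the GAS core overlaps both ISRE cores, and in IFITM1 it overlaps the one nearest the start site. IFI35 and XAF1 lack an exact match to the letters of the ISRE core in these windows. That says nothing about elements elsewhere or about looser forms of the element inside the windows, which were not searched for. XAF1 was among the genes with the larger changes.

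The stretches around the cores of the other 4 genes are shown to compare their spacing, each 5′ to 3′ along the gene, with the core in capitals. They lie at chr1:78649756-78649788 (IFI44, plus strand), chr14:94110613-94110665 (IFI27, plus strand), chr11:313985-314039 (IFITM1, plus strand) and chr11:320871-320927 (IFITM3, minus strand) of GRCh38.p14, from RefSeq.

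IFI44: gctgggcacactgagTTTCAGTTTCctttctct
IFI27: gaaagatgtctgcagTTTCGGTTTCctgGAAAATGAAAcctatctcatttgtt
IFITM1: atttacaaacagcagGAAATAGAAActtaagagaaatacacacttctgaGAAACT
IFITM3: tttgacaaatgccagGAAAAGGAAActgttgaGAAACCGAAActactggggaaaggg

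IFI44 has its core on the other strand, 18 bases before the first of its 2 start sites. IFI27 has 2 cores, 1 on each strand, at 108 and 95 bases before its first start site. IFITM1 has cores at 40 and 6 bases, the latter running past the start site and so shown only in part, and IFITM3 at 52 and 35 bases. The windows of IFITM1 and IFITM3 were identical in 59.9% of aligned positions, the highest of 28 pairs of the 8 genes, and those of IFI44L and IFI44 followed at 52.8%. All other pairs lay between 41.3% (IFI44 and IFI6) and 49.6% (IFI44L and XAF1), so 52.8% is little above them.

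**Figure D4:**
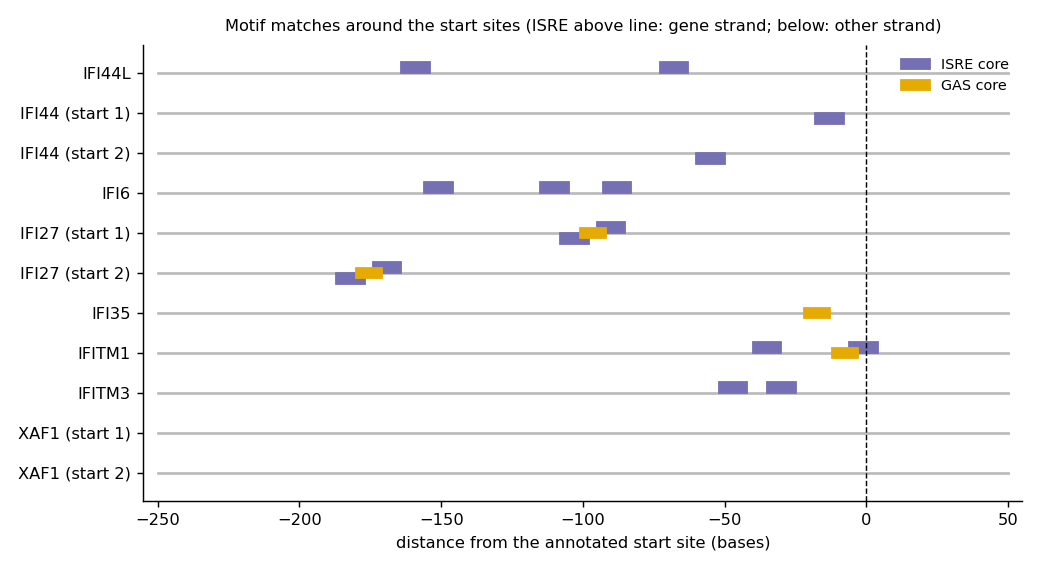
Matches to the ISRE core (purple) and the GAS core (yellow) along the windows of the 8 genes, with the distance from the annotated start site in bases on the horizontal axis. Grey lines are windows and the dashed line the start site; ISRE boxes above a line are on the gene's strand and those below on the other. IFI6 has 3 ISRE boxes, IFI44L, IFI27, IFITM1 and IFITM3 have 2, and IFI35 and XAF1 have none.

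Across the 6 arrays the genes outside the 9 whose log2 signals followed IFI44L most closely were BOD1 (Pearson r = 0.997), WSB1 (0.997), MET (0.996), CYP27C1 (0.996) and BANF1 (0.994). BOD1, for example, read 1953 and 2142 on the scramble arrays, 4423 and 4299 on those of siRNA 1 and 4193 and 4307 on those of siRNA 2. Those closest to IFI27 were MAT2B (0.994), JADE2 (0.994), RCHY1 (0.993), MYL5 (0.991) and TRIM67 (0.990). RCHY1, a ubiquitin ligase, read 716 and 884 on the scramble arrays, 1514 and 1389 on those of siRNA 1 and 1384 and 1899 on those of siRNA 2. Its arrays had the same order within each group as those of IFI27. That order follows from the choice, since these genes had the highest r of all genes tested over these same 6 arrays. A high r does not give the size of a change. MAT2B read 6084 and 6200 on the scramble arrays, 6720 and 6519 with siRNA 1 and 6508 and 6802 with siRNA 2.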

How the data were processed

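RNA of RT-112 cells was measured on 6 oligonucleotide arrays, 2 for each of scramble, siRNA 1 and siRNA 2. The authors deposited linear signal intensity per probe set, made with Affymetrix Expression Console per the submitters' processing notes, whose version and algorithm the sources used here do not give. With 2% trimmed at both ends, array means were 500.067 to 500.07, and array medians were 69.3 to 76.2. Values were used as deposited, as log2(signal + 1). Each of 19775 genes was taken from its brightest probe set by mean log2 signal, and 12735 genes passed the filter, a signal above the array's median on at least 2 arrays. Probe sets with several symbols (1801) or none were left out. Names came from the platform's table and start site windows from RefSeq (GRCh38).

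A coefficient per group over all 6 arrays was fitted with limma 3.58.1 in R 4.3.3, followed by eBayes and Benjamini-Hochberg adjustment over all genes. The fit had 3 residual and 1.72 prior degrees of freedom and was tested on simulated data. Groups are given as mean ± SD. The title of 1 siRNA 1 array spells the gene differently, and the array was grouped by its siRNA number. Figures were drawn with matplotlib 3.10.9 and windows aligned with Biopython 1.88 (Python 3.11.15). Named were all 9 members, PPP2R2A, called genes of each list (at most 4 a comparison), and the 5 tested genes most like IFI44L and IFI27. The members and lists were chosen with earlier results of these data known. List genes named without a call were picked after their values were seen, which holds for XIAP, CXCL10, OASL, CMPK2, IRF9, USP18 and IFI16 and for the interferon genes. The letters A and B did not pair the arrays: deviations of same-letter arrays from their group means correlated at -0.03, 0.01 and 0.04. Other settings were quantile normalization, median centring, a pseudocount of 16, other filters, averaged probe sets, a replicate block, an intensity trend, only the groups compared, and leaving out each array.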

Additional observations from a re-analysis of the deposited data

Results flagged for a closer look

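Probe set 201601_x_at carries the symbols of both IFITM1 and IFITM2 and so entered no comparison. Its signals were 232 and 228 on the scramble arrays, 388 and 454 on those of siRNA 1 and 535 and 429.9 on those of siRNA 2, so all 4 knockdown arrays lay above both scramble arrays. The means were 230.0 with scramble, 421 with siRNA 1 (1.83-fold) and 482 with siRNA 2 (2.10-fold), which drew attention as a signal outside the tested probe sets that was above the control level.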

How the results depend on the processing

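For siRNA 1, siRNA 2 and their direct comparison, limma called 1, 2 and 0 of the 9 genes. The counts were 0, 0 and 0 without a filter, with probe sets averaged per gene, in the replicate block fit and with only the groups compared. In these settings limma called 0 of all genes tested as well. At an unadjusted p under 0.05 there were 8, 7 and 2 in each, but the share of all genes at that level was not computed for these fits. Those counts are therefore not read as a result about the 9 genes. The called counts were 4, 4 and 0 with genes above the median on all 6 arrays (244, 399 and 289 of 10868 genes in all) and 7, 6 and 1 with an intensity trend (299, 472 and 362 of 12735). They were 1, 1 and 0 after quantile normalization (33, 72 and 11 of 12735) and after median centring (11, 1 and 0). With a pseudocount of 16 they stayed at 1, 2 and 0 (65, 162 and 30 of 12735; 50, 76 and 27 as reported). Leaving out each array gave 0 to 0 in all, and 0 of 12735 genes. Over single probe sets the 0, 0 and 0 calls became 9, 6 and 1 with an intensity trend and 0, 1 and 0 after median centring. The share of all probe sets called in those fits was not computed, so these counts are not read as a result about the 9 genes. The cause of the shifts in these counts was not tested. Where arrays were left out, the residual degrees of freedom were also lower. For the 9 genes, of the 405 single-gene values under other settings, 344 kept direction and side of the threshold, 32 lost the call, 16 gained it and 13 changed sign. None of the sign changes was in a called value. With the mean of its probe sets IFI44 stood at 0.23 with siRNA 2. The other sign changes came from leaving out an array, over ranges from -0.11 to 0.031 for IFI44 and -0.25 to 0.10 for IFI35 with siRNA 2, and between the siRNAs from -0.18 to 0.035 for IFI44L, -0.40 to 0.18 for IFI27, -0.37 to 0.10 for IFITM1, -0.0075 to 0.17 for IFITM2, -0.23 to 0.15 for IFITM3 and -0.25 to 0.31 for XAF1. Scaling moved the median of all genes by less than 0.1.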
